A study of Mus musculus with 8 samples.

Results

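The set described here is every non-control probe that the array design places on chromosome 1 between 84.5 and 85.8 Mb, 34 of the 56605 non-control probes on the array and 21 of its 36666 gene names. The probes were read in livers of male mice 8 hours after acetaminophen, in 4 mice aged 8 weeks and 4 aged 80 weeks, with 1 array a mouse; RNA was measured on 1-colour Agilent arrays of 60-base probes. All 8 mice received the drug, which injures hepatocytes through an oxidised metabolite, so that every comparison is between ages after acetaminophen. The labels name neither strain nor dose, and separate animals are implied only by the replicate numbers, so the spread between arrays may be partly technical. Whether both ages are of 1 strain is not stated, and a difference in strain could not be told apart from one in age. The window was chosen by its measured differences in intensity between the 80-week and 8-week arrays, and the values of its probes are therefore given as a description, with no p-value.

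The set goes by the name of the Sp100-Sp140 locus, and the positions in the files go against that name. The file headers give the build as mm9 (NCBI37), and in those positions the probes named Sp110, Sp140 and Sp100 lie between 87473532 and 87596287, outside the window. The mismatch is one of genome build: in GRCm38 the starts of Sp140 and Sp100, whose promoters are printed below with their positions, fall between the same bounds. What the window holds is the unrelated genes Dner, Trip12, Fbxo36 and Slc16a14 on its left, and on its right the A530032D15Rik, A530040E14Rik, Gm7609 and C130026I21Rik genes with 12 probes named only by a genomic interval. The set is called below the A530032D15Rik-Gm7609-C130026I21Rik window. The first probe starts at 84530586 and the last ends at 85337319, and the next probe to the right is 2.01 Mb away, so no probe covers the rest of the window or the 1 Mb beyond its right end.

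The Sp100, Sp110 and Sp140 proteins are nuclear proteins that share a SAND domain and bind chromatin, and Sp100 is a resident of PML nuclear bodies, small spherical assemblies built around the PML protein. Their genes are interferon-induced, and Sp110 and Sp140 are best known in macrophages, where they affect resistance to intracellular bacteria. In the mouse, chromosome 1 also carries partial and fused copies of these genes, among them the Sp100-rs repeat cluster after which Csprs (component of Sp100-rs) is named and whose copy number is known to differ between mice. In the RefSeq gene table for assembly GRCm38.p6, used here for names and order only, 23 genes lie between Slc16a14 and Cab39, 10 of them pseudogenes. A530032D15Rik, A530040E14Rik, Gm7609 and C130026I21Rik precede Sp110, Sp140 and Sp100 in that order. By symbol or transcript accession, 19 of the 34 probes matched a RefSeq gene and 15 did not.

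The promoters of A530032D15Rik, C130026I21Rik and Gm7609 show how near these genes are to the SP genes. With those of Sp140 and Sp100, these 5 are printed because they identify the copies. RefSeq promoter windows (GRCm38.p6) run from 250 bases before to 50 bases after a gene's start. Over the bases that line up, the A530032D15Rik window was identical to that of Sp140 at 270 of 271 positions, and the C130026I21Rik window at 254 of 262. The Gm7609 window was identical to that of Sp100 at 268 of 272. Those of A530040E14Rik, Trip12 and Fbxo36 matched no SP gene's window at more than 42.6% of the positions that line up. In the lines below, which hold only bases before the start, capitals mark bases of a copy that differ from its relative, and Sp140 and Sp100 are wholly in lower case.

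Sp140, chr1:85600453-85600702, plus strand: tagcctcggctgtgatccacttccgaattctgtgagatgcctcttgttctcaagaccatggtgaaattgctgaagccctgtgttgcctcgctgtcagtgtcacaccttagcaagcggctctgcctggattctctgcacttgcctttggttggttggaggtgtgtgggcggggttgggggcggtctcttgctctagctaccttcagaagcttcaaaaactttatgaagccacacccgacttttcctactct
A530032D15Rik, chr1:85109854-85110074, minus strand: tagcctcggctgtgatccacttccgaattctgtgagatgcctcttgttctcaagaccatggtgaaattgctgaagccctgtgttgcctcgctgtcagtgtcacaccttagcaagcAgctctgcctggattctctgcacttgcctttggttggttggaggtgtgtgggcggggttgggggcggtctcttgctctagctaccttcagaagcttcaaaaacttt
C130026I21Rik, chr1:85270567-85270778, minus strand: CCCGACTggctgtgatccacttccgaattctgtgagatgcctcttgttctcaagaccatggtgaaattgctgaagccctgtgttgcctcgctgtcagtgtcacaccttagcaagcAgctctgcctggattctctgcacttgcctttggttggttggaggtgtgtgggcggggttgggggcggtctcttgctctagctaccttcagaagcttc
Sp100, chr1:85649738-85649987, plus strand: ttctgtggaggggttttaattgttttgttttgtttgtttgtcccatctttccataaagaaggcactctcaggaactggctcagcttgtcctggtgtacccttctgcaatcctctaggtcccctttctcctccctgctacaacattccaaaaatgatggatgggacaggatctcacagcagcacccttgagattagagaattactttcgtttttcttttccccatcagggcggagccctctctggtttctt
Gm7609, chr1:85199361-85199610, plus strand: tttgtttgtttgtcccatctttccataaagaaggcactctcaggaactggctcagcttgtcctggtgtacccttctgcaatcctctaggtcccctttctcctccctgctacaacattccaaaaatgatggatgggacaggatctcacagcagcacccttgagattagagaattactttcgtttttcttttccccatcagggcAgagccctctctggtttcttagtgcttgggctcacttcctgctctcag

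A530032D15Rik thus differed from Sp140 at 1 of the 221 bases printed, C130026I21Rik at 8 of 212 and Gm7609 from Sp100 at 1 of 250. In all, 3 motifs, none contained in another, were searched on both strands in the 300-base windows: AANNGAAA, the site of interferon regulatory factors (IRF); TTCNNNGAA, the gamma-activated site; and GGGCGG, the GC box. Of 32851 RefSeq windows of this length, 23.9% held the IRF site, 8.3% the gamma-activated site and 35.7% the GC box. The IRF site was found 2 times in the Gm7609 window and 2 times in that of Sp100, and not in those of A530032D15Rik, C130026I21Rik or Sp140. The GC box was found 2 times each in the A530032D15Rik, C130026I21Rik and Sp140 windows, 1 time in that of Sp100 and not in that of Gm7609. The gamma-activated site was found in none of these 5 windows.

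The array's own probes also repeat each other. Among all probes with at least 90% identity over the bases that line up, 4 pairs included a probe of the window, and they are printed because each pair reads RNA that 1 probe alone may not separate from the other. Capitals mark the bases that differ.

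A_30_P01029479: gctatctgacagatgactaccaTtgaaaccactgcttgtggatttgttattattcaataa
A_30_P01027120: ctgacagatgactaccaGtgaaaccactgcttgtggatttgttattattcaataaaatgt
A_30_P01028421: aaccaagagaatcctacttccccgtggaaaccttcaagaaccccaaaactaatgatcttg
A_30_P01019782: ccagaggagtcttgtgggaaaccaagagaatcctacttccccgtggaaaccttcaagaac
A_52_P511243: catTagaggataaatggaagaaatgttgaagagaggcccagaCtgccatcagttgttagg
A_55_P1981167: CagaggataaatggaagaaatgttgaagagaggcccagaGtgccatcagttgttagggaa
A_30_P01017544: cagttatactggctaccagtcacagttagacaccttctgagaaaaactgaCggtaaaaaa
A_30_P01030919: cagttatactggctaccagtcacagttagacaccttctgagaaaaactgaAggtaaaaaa

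A_30_P01029479, inside the window at chr1:85120161-85120220, matches A_30_P01027120, outside it at chr1:87351659-87351718, at 54 of 55 aligned bases, the difference being T23G counted from the 5′ end of the first probe. A_30_P01028421 and A_30_P01019782, the other probes of the same intervals, are identical over all 41 aligned bases. A_52_P511243, of an Ensembl transcript model, and A_55_P1981167, of C130026I21Rik, match at 55 of 57 bases although the design puts them on opposite strands, and differ by T4C and C43G. A_30_P01017544 and A_30_P01030919 match at 59 of 60 and differ by C51A. The probe for A530040E14Rik, a long noncoding RNA, differed at 4 bases from a 60-base stretch of the second Sp110 promoter window, which is shown with it.

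A530040E14Rik probe A_55_P2918195: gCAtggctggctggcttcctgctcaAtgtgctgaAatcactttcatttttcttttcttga
Sp110 promoter: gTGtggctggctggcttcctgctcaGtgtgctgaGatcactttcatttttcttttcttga

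Detection over the whole array ran from 24538 to 28536 probes well above background per array, and the array's 75th percentile of intensity from 154.7 to 352.8. Values below are either the scanner's background-subtracted intensity or the normalised level, which is log2 of that intensity minus the array's 75th percentile, so that 0 is that percentile. Going by the numbering of the scans alone, the young arrays filled one row of the slide and the old arrays the other. The labels do not state this layout. If it holds, an effect of row cannot be told apart from that of age. On the first principal component of the tested probes (47.8% of the variance), 8-week replicates 1 and 2 scored 76.0 and 116.1, and the other 6 arrays between -57.8 and -12.4. Hepatocyte markers (10 probes of 6 genes, albumin among them) were above background on all 8 arrays, as the label liver requires. In bulk liver, a lower level can come from fewer cells of a type or from less RNA in each cell, and these cannot be told apart.

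Along the window, every probe whose ages were separated lay to the right of Slc16a14. All 4 of the 80-week arrays lay above all 4 of the 8-week arrays for 13 of the 34 probes, and none showed the opposite order; over the whole array 2.72% of probes were separated upward and 1.97% downward, and of the tested probes 4.45% and 3.69%. The 12 probes from Dner to Slc16a14 included none of the 13, and the 22 probes to their right included them all. The median difference in normalised level was 0.26 over the left 12 probes and 1.69 over the right 22, against 0.18 over all probes of the array. The 11 probes of the window that were above background on no array had a median difference of 0.27. Above background on all 4 of the 80-week arrays and on no 8-week array were 4 probes of the window, and 38 (0.0671%) on the whole array. Of the 34 probes, 18 were above background on at least 4 arrays and were tested with limma, and 7 of them were called higher at an adjusted p under 0.05, where 0.284% of the 25735 tested probes were; none was called lower, where 0.0311% were. Without the filter on dim probes, 6 were called higher and none lower, where 0.161% of all probes were called in either direction. Since the same contrast chose the window, nothing is read from these counts. Of the 18 tested probes, 4 passed the filter only through the 80-week arrays.

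**Figure D1:**
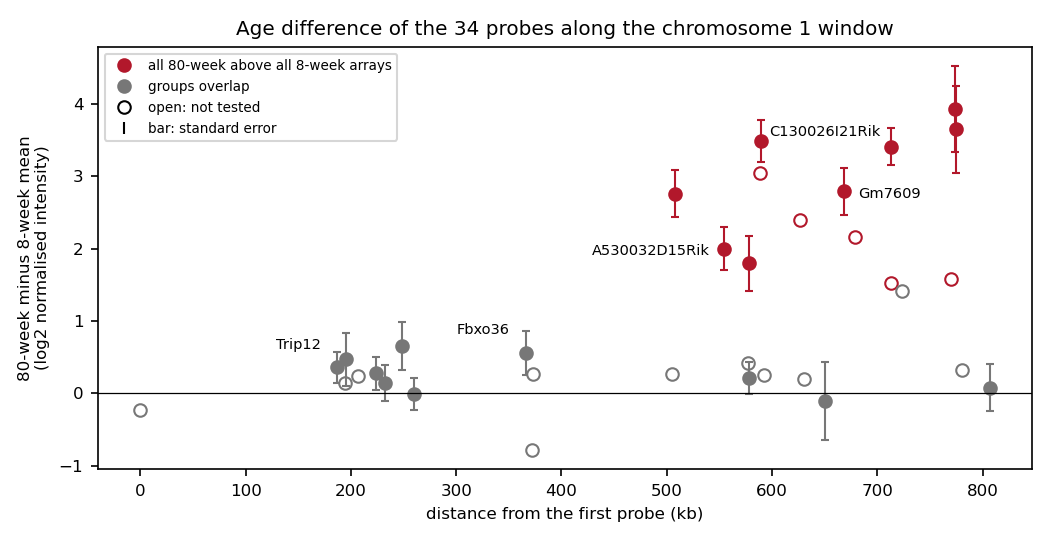
Difference between the 80-week and 8-week group means of log2 normalised intensity (y axis) for the 34 probes against their distance in kb from the first probe (x axis); bars are standard errors from limma for tested probes. The 13 probes whose ages do not overlap (red) all lie in the right part, over a stretch of 267 kb, while the Trip12 and Fbxo36 probes sit between -0.01 and 0.66.

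Trip12, an E3 ubiquitin ligase that attaches ubiquitin to target proteins, has 7 probes in the window, 6 of them tested. Its brightest probe, A_55_P2110235, read 312, 390, 311 and 285 in the 8-week arrays and 331, 360, 362 and 515 in the 80-week arrays. The ages overlapped after scaling, with normalised levels of 0.52 ± 0.28 (SD, n = 4) and 0.88 ± 0.18. The differences of the 6 tested Trip12 probes ran from -0.01 to 0.66, with standard errors from 0.21 to 0.37, and none was called. The seventh probe, A_51_P138818, was above background on no array.

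Fbxo36, which encodes an F-box protein of the family that selects substrates for ubiquitin ligases, lies next to the right. Its probe read 147, 182, 225 and 163 at 8 weeks and 171, 215, 225 and 426 at 80 weeks, a difference of 0.56 in normalised level (SE 0.30), with overlapping ages. The Slc16a14 probes, for a transporter of the monocarboxylate family, and the Dner probe, for a neuronal Notch-type ligand, were above background on no array. The Dner probe, A_66_P136651, is the leftmost probe of the window. C130021H21Rik was above background on 1 array at 8 weeks and 2 at 80 weeks, and its values overlapped.

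The first separated probe, and the first of the right part above background on any array, was A_30_P01019184, the 14th of the 34, on the minus strand of the interval chr1:85036677-85038530. It read 18.6, 23.3, 20.3 and 28.1 in the 8-week livers and 149, 114, 103 and 226 in the 80-week livers. Every 80-week value was above every 8-week value, and only 1 of the 4 young arrays was above background. The difference was 2.76 in normalised level (SE 0.33), and 1.22 with normexp background correction. The probe before it, A_30_P01017898 at chr1:85035652-85035711 on the other strand, was above background on no array.

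A530032D15Rik, the protein-coding gene with the Sp140-type promoter, was measured by 1 probe, A_55_P2472735, at chr1:85085196-85085255. Its intensities were 18.3, 15.5, 5.49 and 11.6 at 8 weeks and 35.2, 37.1, 50.5 and 53.5 at 80 weeks. It was above background on all 4 of the 80-week arrays and on none of the 8-week arrays. The normalised level was -4.28 ± 0.62 (SD, n = 4) in the young group, where it is only a bound, and -2.27 ± 0.19 in the old group, at least 2.03-fold higher. Such bounds set the old mean against the lowest signal that counted as above background on each young array, or the probe's own signal where that was higher. They hold for the scanner's background subtraction alone. With normexp the difference of this probe was 0.54 in normalised level. For the window's other probes with a bound below, it was 0.84 (A_51_P231820), 0.64 (A_55_P2186220) and 0.94 (A_30_P01029479).

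C130026I21Rik, the second protein-coding gene with an Sp140-type promoter, has 4 probes, and they did not read alike. A_51_P231820 read 4.80, 6.69, 4.44 and 4.76 at 8 weeks and 58.6, 54.3, 45.0 and 45.5 at 80 weeks, and was above background in the 80-week livers alone. The 80-week level was at least 2.36-fold higher. A_52_P332788 carries the same gene name but lies at chr1:85109017-85109076, near A530032D15Rik, and read 24.2, 33.1, 9.59 and 20.2 against 98.3, 58.7, 51.0 and 59.2. Its ages did not overlap either, with a difference of 1.80 (SE 0.38; 0.66 with normexp), and it was not called. A_55_P2904974 was above background on 1 of the 80-week arrays and on none of the 8-week arrays, so no fold is given; its ages were separated, at 5.21 to 14.4 and 19.9 to 43.3. The fourth, A_55_P1981167, was above background nowhere and its values overlapped, from 4.78 to 7.39 at 8 weeks and from 6.52 to 26.2 at 80 weeks.

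The Ensembl transcript model ENSMUST00000160802.7, whose probe is printed above as the near copy of A_55_P1981167, read 4.84, 5.20, 4.66 and 5.03 at 8 weeks and 41.9, 21.5, 24.1 and 15.8 at 80 weeks. The ages were separated, but only 1 of the old arrays was above background, so no fold is given. Its 2-base relative from C130026I21Rik overlapped between the ages, so near-identical probes differed in whether the groups were separated.

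Gm7609, the gene with the Sp100-type promoter, has 2 probes. A_55_P2186220, at chr1:85198851-85198910, read 5.09, 6.85, 4.66 and 7.92 in the 8-week livers and 49.1, 31.5, 36.5 and 39.9 in the 80-week livers. All 4 of the old arrays and none of the young arrays were above background, and the old level was at least 1.81-fold higher. A_55_P2086279 read from 5.08 to 5.85 at 8 weeks and from 14.8 to 30.2 at 80 weeks, separated but above background on no array, so no fold is given.

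**Figure D2:**
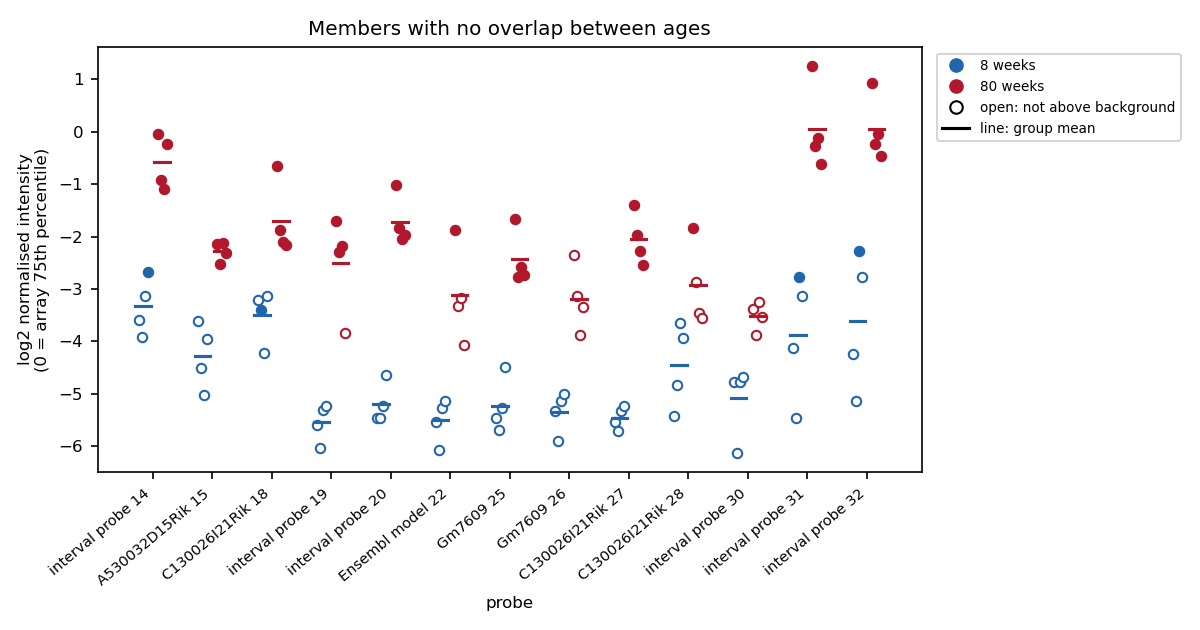
Normalised log2 intensity (y axis, 0 being each array's 75th percentile) of the 13 probes whose ages do not overlap (x axis, named by gene and by order among the 34 from left to right), with 4 arrays at 8 weeks in blue and 4 at 80 weeks in red; lines are group means and open points are arrays not above background. Most blue points are open, so the gaps cannot be ranked across probes.

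Interval-named probes, which the array design places on transcribed intervals without a gene name, make up 12 of the 34, and 6 of these were separated by age. The brightest were A_30_P01022910 and A_30_P01030738, on the minus strand of chr1:85304494-85305390 between C130026I21Rik and the right end. A_30_P01022910 read 13, 8.04, 26.1 and 20.3 at 8 weeks and 367, 178, 201 and 173 at 80 weeks. A_30_P01030738 read 11.9, 9.99, 37.1 and 26.2 at 8 weeks and 297, 182, 211 and 191 at 80 weeks. Both probes of this interval gave the same picture, with 1 young array and all 4 old arrays above background and differences of 3.93 (SE 0.59) and 3.65 (SE 0.60) in normalised level. The values were 1.81 and 1.72 with normexp background correction, which adds 50 to each intensity and so draws dim values together, and 3.02 and 2.56 without 8-week replicates 1 and 2. Their SDs in the young group were 1.20 and 1.32 in normalised level, the 8-week replicates 1 and 2 being the lowest.

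The interval chr1:85117750-85129200 was read on both strands. On its plus strand A_30_P01029479 read 5.11, 7.94, 4.77 and 7.09 at 8 weeks and 76.2, 60.3, 53.1 and 67.5 at 80 weeks, above background in the old livers alone and at least 2.98-fold higher. On its minus strand A_30_P01026202 read from 4.51 to 5.35 at 8 weeks, and 47.5, 44.0, 48.4 and 18.3 at 80 weeks. It was above background on 3 of the 4 old arrays and no young array, and thus not tested, and no fold is given. The second plus-strand probe, A_30_P01028421, read 4.38 to 5.24 on all 8 arrays, at the floor, so the probes of 1 interval differed in whether any signal was detected.

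Near copies of 3 of these probes lie outside the window. A_30_P01027120, the copy of A_30_P01029479 with 1 differing base, read 11.5, 17.7, 5.88 and 5.89 at 8 weeks and 91.3, 59.8, 69.2 and 60.9 at 80 weeks, at least 3.24-fold higher. A_30_P01019782, identical to A_30_P01028421 over 41 bases, was above background on no array, as was its counterpart. A_30_P01030919, the copy of A_30_P01017544, was also above background on no array. Its ages overlapped, at 5.25 to 10.6 against 8.48 to 24.5, while those of A_30_P01017544 were separated, at 5.05 to 8.19 against 14.5 to 23.0. Which of the copies gave the RNA that either probe of a pair read was not tested. These probes were singled out after their values were seen.

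Not every detected RNA of the right part followed the pattern. A530040E14Rik, the noncoding RNA whose probe resembles the Sp110 promoter, was above background on all 8 arrays. It read 113, 136, 108 and 92.3 at 8 weeks and 112, 125, 130 and 117 at 80 weeks, with overlapping ages and a difference of 0.21 (SE 0.22). It lies at chr1:85108322-85108381 on the plus strand, next to the separated C130026I21Rik probe A_52_P332788 on the minus strand. The rightmost probe, A_30_P01031195 of chr1:85323303-85337483, read 143, 210, 98.0 and 90.1 against 125, 134, 188 and 78.7, a difference of 0.08 (SE 0.32). A_30_P01028464 of chr1:85150625-85185800 was above background on 2 arrays of each age and differed by -0.11 (SE 0.54). The remaining probes of the right part (AA624905 and 2 interval probes) overlapped between the ages and were above background on 1 array at most.

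**Figure D3:**
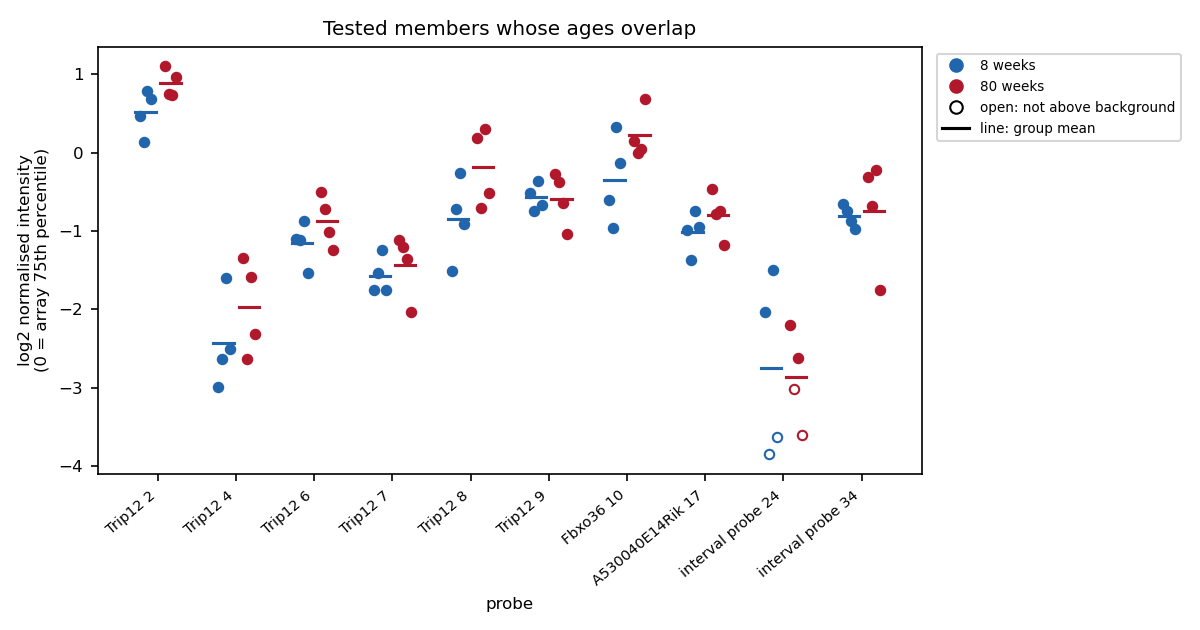
Normalised log2 intensity (y axis) of the 10 tested probes of the window whose ages overlap (x axis, gene name and order among the 34), 8 weeks in blue and 80 weeks in red, 4 arrays each; lines are group means and open points are arrays not above background. The group means differ by -0.11 to 0.66.

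The edges of the window were described too. To the left, 7 probes lie within 1 Mb, and the 3 tested ones are for Pid1, an adaptor protein with a phosphotyrosine-binding domain. Their differences were 0.61, -0.39 and 0.22, with limma adjusted p-values of 0.448, 0.622 and 0.794, and none was called or had an unadjusted p under 0.05. The nearest probe outside the left end, Dner A_55_P2795805 at 84366527, was above background on no array, although its scaled values were separated by age. The nearest outside the right end, A_30_P01033235 at 87345173, was above background on 1 old array alone.

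The SP family genes themselves lie outside the window, and their probes are not part of the rule; the list was drawn up with earlier results of these data known. Of its 7 tested probes, for 4 genes, 1 was higher past the threshold and none lower, and the median difference was 0.27 against 0.01 over all tested probes. It was 0.84 over the 6 probes left without the TG-repeat probe described below, and 2 of the 6 are the overlapping Csprs probes. The called probe was Csprs A_55_P1973417, at 43.0, 48.3, 70.4 and 68.3 in the 8-week arrays and 603, 415, 272 and 479 in the 80-week arrays. All 8 arrays were above background and the ages were well apart, by 3.02 in normalised level (SE 0.43, limma adjusted p = 0.0258). It did not pass the threshold when 1 of these arrays was left out: young replicate 1 (limma adjusted p = 0.119), young replicate 2 (0.066), old replicate 2 (0.0585) or old replicate 4 (0.0877), the difference then lying between 2.73 and 3.07. With the filter of at least 1 array above background, the adjusted p was 0.0525. The other Csprs probe, A_55_P2019601, shares 46 bases with it and is therefore no independent reading. It read 50.8 to 128 at 8 weeks and 384 to 912 at 80 weeks, a difference of 3.0 (SE 0.54, limma adjusted p = 0.0623). The array design puts Csprs on chr8_random, sequence assigned to chromosome 8 without a fixed position, whereas the RefSeq table lists it under chromosome 1.

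Sp140, a bromodomain protein of immune cells, gave different readings from its probes. A_55_P2137121, at chr1:87507329-87507388, read 23.3, 31.1, 19.7 and 17.4 at 8 weeks and 60.3, 60.4, 46.2 and 53.9 at 80 weeks, separated by 1.40 (SE 0.24) with a limma adjusted p of 0.0526. Only 1 young array was above background, and with normexp background correction the difference was 0.51 (adjusted p = 0.319). A_55_P2086811, at chr1:87541553-87541612 and brighter, read 562, 721, 552 and 600 against 485, 662, 589 and 924, a difference of 0.19 (SE 0.21, adjusted p = 0.677). Sp100 A_55_P2744583 differed by -0.36 (SE 0.29, adjusted p = 0.561), and Sp110 A_52_P512201 by 0.27 (SE 0.30, adjusted p = 0.678). The remaining tested Sp110 probe, A_55_P2066792, holds a TG repeat of 36 bases, in capitals in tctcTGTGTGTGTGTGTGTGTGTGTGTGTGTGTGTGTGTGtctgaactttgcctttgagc, and read 144000 to 197000 on every array, so it is not taken as a reading of Sp110.

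**Figure D4:**
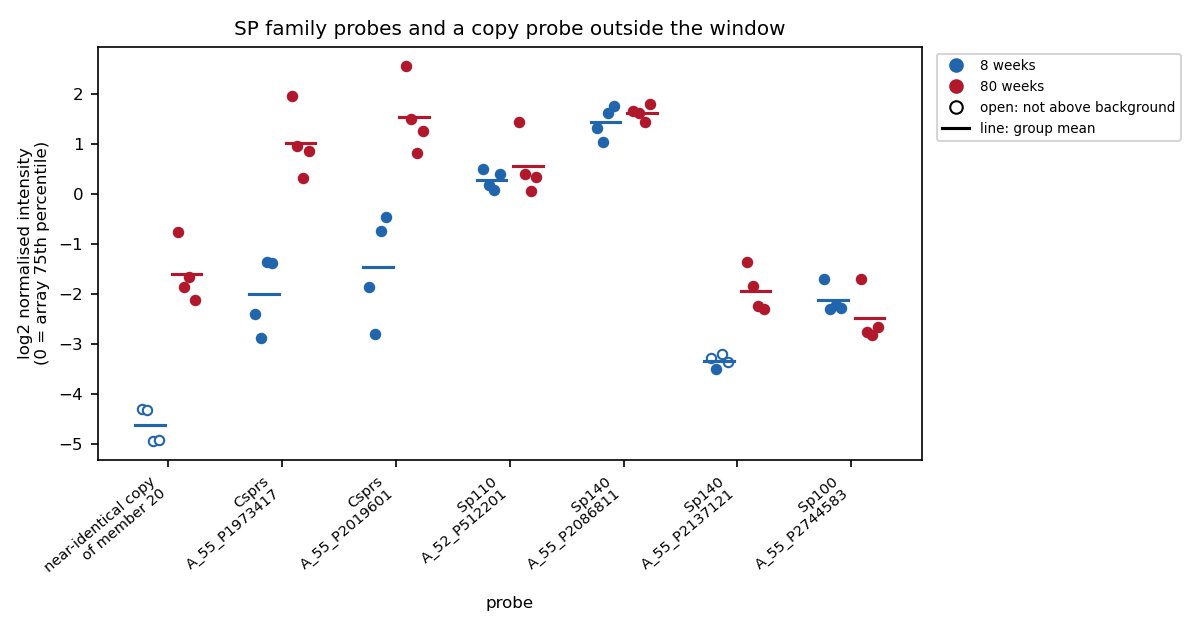
Normalised log2 intensity (y axis) of SP family probes and of the near-identical copy of member 20, A_30_P01027120 (x axis), all outside the window, 8 weeks in blue and 80 weeks in red, 4 arrays each; lines are group means and open points are arrays not above background. The copy probe, both Csprs probes and Sp140 A_55_P2137121 are separated by age, while the Sp110, Sp100 and other Sp140 probes overlap.

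Genes of PML nuclear bodies and of the interferon response, the settings in which SP proteins are best known, were read from lists made with earlier results known. None of the 24 tested PML body probes (10 genes) was called in either direction by limma, 3 had an unadjusted p under 0.05, and their median difference was -0.20. The smallest p-values were those of Hipk2 A_55_P2091861, for a kinase (-0.92, adjusted p = 0.255), and Pml, the scaffold (0.76, 0.303). The other tested Hipk2 probes differed by -0.22 (limma adjusted p = 0.743) and -0.14 (0.816). Of the 44 tested interferon response probes (29 genes) limma called none and 5 had an unadjusted p under 0.05, with a median difference of -0.07. The smallest p-values were those of Ifih1 A_55_P2738674, for a sensor of double-stranded RNA (1.13, adjusted p = 0.229), Oas2, an oligoadenylate synthetase (-1.09, 0.282), and Oasl2, its relative (-1.22, 0.297). The other tested Ifih1 probe differed by 0.60 (limma adjusted p = 0.431). The median over all tested probes was 0.01.

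Markers of other liver cells are given because SP genes are expressed in leukocytes. Of the B and plasma cell list, 3 of 8 probes were tested and 1 was higher, Jchain, the joining chain of secreted antibodies (5.41, limma adjusted p = 0.0143). Its intensities were 4.79 to 24.3 at 8 weeks, where 1 of 4 arrays was above background, and 151 to 927 at 80 weeks, where all 4 were, so the size of its difference depends on the floor. The linear level summed over the list's 6 genes, 1 probe each and in units of the 75th percentile, ran from 0.485 to 1.0 over the 8-week arrays and from 1.32 to 5.76 over the 80-week arrays; Cd79a, a defining B cell marker, was above background on no array. The summed levels of T and NK cell markers were 2.0 to 4.5 and 3.55 to 4.69, those of Kupffer cell markers 52.8 to 160 and 65.3 to 252, and those of monocyte and neutrophil markers 84.7 to 163 and 35.3 to 125. Limma called none of the probes of these 3 lists, and 2 T and NK cell probes had an unadjusted p under 0.05. Both were probes of Cd2, at overlapping positions and higher at 80 weeks. Their differences were 1.46 (A_66_P108659, ages separated) and 1.22 (A_55_P2077901, ages overlapping). The part of the B and plasma cell markers, which move with the window's separated probes, was not tested, and nor was that of Cd2.

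With 8-week replicates 1 and 2 left out, none of the window's probes was called, where 0.0117% of all tested probes were. The differences of the window's separated tested probes then ran from 1.99 to 3.23 in normalised level, against 1.80 to 3.93 over all arrays. Leaving out young replicate 1 left 3 of them called, where 0.113% of all tested probes were, and old replicate 4 left 3, where 0.12% were. Without old replicates 1, 2 or 3 in turn, 4 were called each time, where 0.26%, 0.303% and 0.132% were. Without young replicate 2, 5 were called, where 0.202% were, and without young replicate 3 or 4, 7 were, where 0.307% and 0.385% were.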

How the data were processed

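The deposited files are the scanner output of 8 1-colour arrays, 1 for each labelled replicate, with positions in mm9. They were read with Agilent Feature Extraction (9.1 per the submitters' processing notes, 10.7.3.1 per the file headers). The intensity used is the processed signal, which the scanner software had background-subtracted, per the file headers; the authors' deposited table held the same intensity values within 1% and rounding. From these, spots of a probe were averaged without outlier spots, log2 was taken and each array's 75th percentile subtracted. Probes well above background on at least 4 arrays were tested with limma 3.58.1 (R 4.3.3; lmFit and eBayes, 80 against 8 weeks, Benjamini-Hochberg over all tested probes, threshold 0.05). On simulated data the fit recovered 26% of changes of 1 on the log2 scale and 94% of changes of 3 for this comparison over 25738 probes. It also called 11 unchanged probes. The simulated noise was drawn independently for each probe and array. Shifts shared between arrays, as in 8-week replicates 1 and 2, were not simulated, so these rates may not hold for the real arrays. The number of arrays limits the precision.

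Members, gene lists and the rule for naming were chosen with earlier results of these data known. Named were the SP-related tested probes, the tested probes whose ages do not overlap, those nearest each end of the window, and of each list the called genes and up to 3 with the smallest p-values; others were described for completeness. Replicate numbers are not taken as pairs: deviations of same-numbered arrays correlated at 0.028, 0.136, 0.111 and 0.13. Other scalings, background corrections, filters, variance priors, array weights and left-out arrays were tried. A genome of the build in the headers was not used here. One gene that the naming rule selects is not reported here.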

Additional observations from a re-analysis of the deposited data

Results flagged for a closer look

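Within a group of 4 arrays, a value was marked where its gap to the nearest other value was over 0.829 of the group's range, which happens by chance in about 5% of groups; it happened in 4 of 100 groups examined. For Gm7609 A_55_P2186220, old replicate 1 had a normalised level of -1.66 on the log2 scale, and the other 3 arrays lay between -2.77 and -2.58. For Sp100 A_55_P2744583, young replicate 1 was at -1.70 with the others between -2.29 and -2.21, and old replicate 1 was at -1.69 with the others between -2.82 and -2.65. For A_30_P01017544 of chr1:85300475-85331475, young replicate 2 was at -6.13, and the others lay between -4.78 and -4.69. The last probe was above background on no array.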

How the results depend on the processing

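The count of 7 probes of the window called higher became 1 with normexp background correction (0.221% of all tested probes called), 0 with the filter of all 8 arrays (which leaves none of the 7 to test), 4 with a replicate block (0.295%), 0 without young replicates 1 and 2, and 3 to 7 without 1 array. The 73 probes higher over the whole array became 24 with the filter of all 8 arrays, 140 with array weights, 3 without young replicates 1 and 2 and 27 to 86 without 1 array. The 8 lower became 16 with median scaling, 2 with the filter of all 8 arrays, 5 with 1 probe a gene name, 29 with array weights, 19 with a replicate block, 0 without young replicates 1 and 2 and 2 to 21 without 1 array. The 1 SP family probe became 2 with normexp, quantile scaling or the trended and robust prior, 3 with median scaling or array weights, and 0 with the filter of at least 1 array, 1 probe a gene name, the replicate block or without young replicates 1 and 2; without 1 array it ran from 0 to 2. The interferon list's count was 0 or 1 without 1 array. With normexp, which adds an offset, the differences of the 8 separated tested members were 0.54 to 1.81. Differences that changed sign were those of Sp110 A_55_P2066792 (-0.15 with array weights, -0.22 without young replicates 1 and 2, -0.05 to 0.40 without 1 array), Sp110 A_52_P512201 (-0.02 to 0.44 without 1 array), Sp140 A_55_P2086811 (-0.01 with array weights, -0.06 without young replicates 1 and 2) and Pid1 A_55_P2720923 (0.00 to 0.48 without 1 array). Apart from the filters, whose construction changes which probes are tested, the cause was not tested. The Csprs A_55_P1973417 call was lost with the replicate block (adjusted p = 0.0753). Dim members at 8 weeks are limited by signal over background, and their differences in normalised level depend on the floor.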
